A study of Mus musculus with 2 samples.

Results

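The genes described here are 44 genes of DNA replication and S phase, the stretch of the cell cycle in which the genome is copied. They were taken by symbol from the 22032 rows of a count matrix of unique molecular identifiers (UMIs, each standing for 1 captured RNA molecule), and all 44 were found there. The cells were double-negative 1 (DN1) cells, the thymic fraction that lacks CD4 and CD8 and holds early T cell progenitors together with innate lymphoid cells. They were sorted from the embryonic thymus of 5x polychromILC mice, a strain with reporters at lineage transcription factor genes that include Id2, Gata3, Rora and Bcl11b, and profiled with 10x Genomics 3' chemistry. The labels name the groups E15.5_DN1 and E19.5_DN1, after the embryonic day, with 1 library each, the same strain in both and no treatment, and they do not say how many embryos were pooled. The extraction label describes nuclei obtained by lysis of sorted cells, and it is unclear if nuclei or intact cells entered the droplets. Barcodes end in the suffix 1 or 2. Neither suffix could be assigned to an embryonic day, so the days were not compared and values are given per suffix, each taken as 1 library.

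Before S phase, the minichromosome maintenance (MCM) helicase is loaded onto replication origins, and it is then activated by Cdc45, the GINS complex and Mcm10. Polymerases alpha, delta and epsilon copy the strands with the sliding clamp Pcna and its loader, while ribonucleotide reductase and thymidylate synthase supply nucleotides and chaperones supply histones. Transcripts of many of these genes rise at the G1 to S transition under E2F factors and fall later in the cycle, before those of the mitotic (G2/M) genes peak. In the thymus, the DN2 and DN3 stages of T cell development are known to include phases of rapid division.

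The E2F letters in the promoters are shown first, because they are shared by members of different roles. RefSeq promoters of mouse build GRCm38.p6, from 250 bases before to 50 after each gene's start, were matched by symbol for 34 of the 44 members, as 37 promoters. The letters searched on both strands were TTTCCCGC, TTTCGCGC, TTTGCCGC and TTTGGCGC, 4 forms of the E2F sequence that can overlap each other. They were present in 16 of the 37 member promoters (43.2%), in 2.26% of all 32851 promoters and in 3.90% of the promoters with a GC content of 55% or more. They were in 18 of 60 promoters of other replication genes and in 3 of 52 promoters of G2/M genes (5.77%). The letters CCAAT, searched on both strands, were in 70.3% of member promoters, 39 of 52 G2/M promoters and 37.4% of all promoters. The letters TTTGAA, the core of the cell cycle homology element of mitotic genes, were in 13.5% of member promoters against 65.4% of G2/M promoters and 17.9% of all. These matches are a description of letters, not of bound sites. Each window holds 60 bases around such a match, all before the gene's start, written 5′ to 3′ on the gene's strand, with the E2F letters in capitals. The genes are helicase subunits (Mcm5, Mcm6), the helicase loader Cdc6, a polymerase subunit (Pola1), a chromatin remodeller and its partner (Hells, Cdca7) and a ubiquitin ligase receptor (Dtl).
Mcm5: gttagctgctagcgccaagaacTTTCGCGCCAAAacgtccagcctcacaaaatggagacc
Mcm6: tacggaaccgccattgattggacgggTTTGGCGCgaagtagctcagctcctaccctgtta
Cdc6: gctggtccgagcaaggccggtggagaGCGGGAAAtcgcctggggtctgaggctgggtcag
Pola1: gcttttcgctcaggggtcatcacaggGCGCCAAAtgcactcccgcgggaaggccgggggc
Hells: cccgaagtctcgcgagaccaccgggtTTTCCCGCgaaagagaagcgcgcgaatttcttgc
Cdca7: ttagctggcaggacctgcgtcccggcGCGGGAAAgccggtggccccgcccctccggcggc
Dtl: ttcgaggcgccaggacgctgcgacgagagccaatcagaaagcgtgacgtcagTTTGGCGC
The windows lie at chr8:75109334-75109393 on the plus strand for Mcm5, chr1:128359719-128359778 on the minus strand for Mcm6 and chr11:98907987-98908046 on the plus strand for Cdc6. Those of Pola1 (chrX:93632260-93632319, minus), Hells (chr19:38930902-38930961, plus), Cdca7 (chr2:72476122-72476181, plus) and Dtl (chr1:191575545-191575604, minus) follow. In Mcm5 the capitals cover a forward match and an overlapping match of the opposite strand.

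There were 5 kinds of barcode, gated within each suffix by 2 or more UMIs of each of a pair of genes. Spi1 and Bcl11a gated 249 progenitor barcodes in suffix 1 and 557 in suffix 2, Icos and Rora gated 207 and 797 group 2 innate lymphoid (ILC2) barcodes, and Xcl1 and Nkg7 gated 757 and 495 natural killer or group 1 innate lymphoid (NK/ILC1) barcodes. Cd3d and Sox13 gated 17 and 100 gamma-delta T barcodes, and Cd3g and Myb gated 55 and 69 DN2/DN3 barcodes. The 17 gamma-delta T barcodes of suffix 1 were too few for a value per barcode and are given by level only. In all, 3303 of 5090 barcodes were gated, and 25 barcode sequences occurred under both suffixes, of which 1 had both its barcodes in the gates. Depth differed by gate, with a median of 33426 and 32905 UMIs in the progenitor gates, 18958 and 12083 in the ILC2 gates and 11263 and 11067 in the NK/ILC1 gates of suffix 1 and 2. Values per barcode therefore rest on barcodes thinned to 7000 UMIs. There is 1 library per suffix, so no difference was tested. Intervals are 95% intervals that cover counting error only, except that the interval of a median covers the spread of the barcodes or genes behind it.

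The progenitor and ILC2 marker lists were highest in their own gates in both suffixes, and the NK/ILC1, gamma-delta T and DN2/DN3 lists were not. Mef2c stood at 116 and 149 UMIs per 1000000 (CPM, UMIs summed over a gate) in the progenitor gates of suffix 1 and 2, Il1rl1 at 25.3 and 253 CPM in the ILC2 gates, Ncr1 at 133 and 194 CPM in the NK/ILC1 gates and Ptcra at 44.2 and 48.6 CPM in the DN2/DN3 gates. The summed markers of a gate's own list were 687 and 927 CPM for progenitors and 674 and 1140 CPM for ILC2. For NK/ILC1 they were 5853 and 3523 CPM, though the NK/ILC1 list summed to 2832 and 3661 CPM in the gamma-delta T gates. Nearly all of the latter was Gzma (2829 and 3641 CPM), and without Gzma the list summed to 3.20 and 20.5 CPM there. In the NK/ILC1 gates it summed to 2493 and 2376 CPM without the highest gene of each gate (Gzma and Ccl5). The 8 gamma-delta T markers summed to 379 and 858 CPM in the gamma-delta T gates but to 929 CPM in ILC2 of suffix 1, mostly Cd163l1 (739.5 CPM). The 10 DN2/DN3 markers summed to 1286 and 1612 CPM in the DN2/DN3 gates and to 1371 and 1404 CPM in the gamma-delta T gates, where Bcl11b led, so DN2/DN3 and gamma-delta T are names of gates. Some libraries and barcodes stood apart. In suffix 1, a cluster held 550 barcodes, or 370 once barcodes with UMIs of the epithelium genes Krt8, Krt18 and Prss16 were left out. The 370 barcodes held Spi1 (91.9 CPM) together with Xcl1 (522 CPM) and Nkg7 (746 CPM). Of these, 333 lay among the 757 barcodes of the NK/ILC1 gate of suffix 1. Results of that gate are given with and without this mixed cluster, a step chosen after seeing the data. In the DN2/DN3 gate of suffix 2, 40 of 69 barcodes held a UMI of Cd8a or Cd8b1, genes of later alpha-beta thymocytes (219.8 and 335.8 CPM), against 0 of 55 in suffix 1. Doublets called in suffix 1 were few (10 barcodes, 0.466% of those that passed), so some may remain there.

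At matched depth the replication transcripts were most abundant in the DN2/DN3 gates and, in suffix 2, least abundant in the ILC2 and NK/ILC1 gates. The median barcode held 43 member UMIs of 7000 in the DN2/DN3 gate of suffix 1 (interval 35 to 48) and 42 in that of suffix 2 (30 to 47). In the latter gate 18 of 69 barcodes were too shallow for thinning and are not in this median. The progenitor gates held a median of 33 (30 to 34) in suffix 1 and 27 (25 to 28) in suffix 2. The ILC2 gate held a median of 30 (27 to 34) in suffix 1 but 7 (7 to 9) in suffix 2, or 12.6 there when thinned to 10000 UMIs and rescaled to 7000. The NK/ILC1 gate held 22 (21 to 23) in suffix 1, or 27 (23 to 30) without the mixed cluster, and 7 (6 to 8) in suffix 2, or 9.1 from the same 10000 UMIs. Gamma-delta T barcodes of suffix 2 held 24 (17 to 30). In suffix 2 the ILC2 and NK/ILC1 intervals overlapped each other and lay apart from those of the other gates. In suffix 1 the progenitor and ILC2 intervals overlapped, and the DN2/DN3 interval lay above both. In bulk sums, fewer cells with a transcript and less of it per cell cannot be told apart, so the spread over barcodes is given next.

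**Figure D1:**
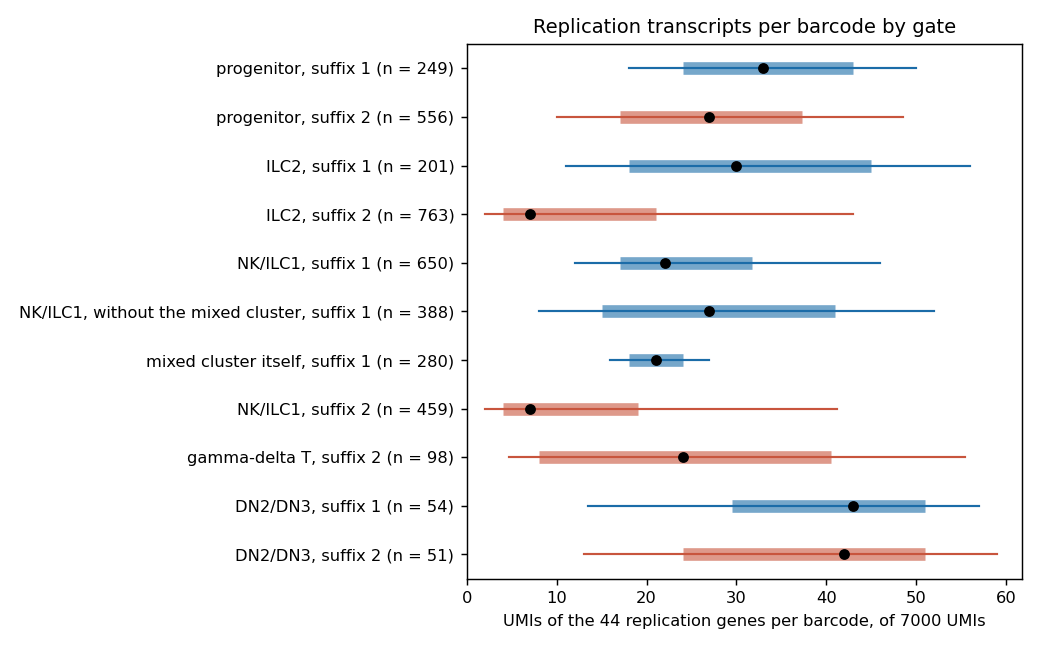
UMIs of the 44 replication genes per barcode, after thinning each barcode to 7000 UMIs, by gate and barcode suffix (suffix 1 blue, suffix 2 red). The point is the median, the thick bar runs from the 25th to the 75th percentile and the thin line from the 10th to the 90th. The ILC2 and NK/ILC1 gates of suffix 2 have a median of 7 and a 90th percentile above 40, and the mixed cluster runs from 15.9 to 27 between the 10th and 90th percentiles.

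The low medians of suffix 2 came with long upper tails. In its ILC2 gate the 10th percentile was 2 member UMIs and the 90th was 43, and in its NK/ILC1 gate they were 2 and 41.2. Of 763 ILC2 barcodes of suffix 2, 420 held under 10 member UMIs (exact Clopper-Pearson interval of the share 51.4 to 58.6%) and 135 held 30 or more (17.7%). In the ILC2 gate of suffix 1, 15 of 201 held under 10 (7.46%) and 101 held 30 or more (50.2%). The NK/ILC1 gate of suffix 2 had 281 of 459 barcodes under 10 (61.2%) and 78 at 30 or more (17.0%). That of suffix 1 had 11.6% under 10 and 45.4% at 30 or more without the mixed cluster, or 6.92% and 28.6% with it. Progenitor barcodes under 10 were 1.2% in suffix 1 and 8.45% in suffix 2, and DN2/DN3 barcodes under 10 were 7.41% and 5.88%. The gamma-delta T gate of suffix 2 lay between these, with 30.6% under 10 and 42.9% at 30 or more. The ranges are cuts of a continuous sum and not cell types, and in the ILC2 gate of suffix 2, 21 barcodes lay within 28 to 31 member UMIs.

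The variance of the member sum divided by its mean, the Fano factor, would be near 1 if barcodes differed by counting alone. It was 17.2 in the ILC2 gate and 18.5 in the NK/ILC1 gate of suffix 2, 8.76 in the ILC2 gate of suffix 1 and 4.51 and 7.33 in the progenitor gates. The gamma-delta T gate of suffix 2 had 16.5, and the DN2/DN3 gates had 7.03 in suffix 1 and 9.63 in suffix 2. The mixed cluster had 1.0 for the members and 0.941 for the G2/M genes, around a median of 21 member UMIs (20 to 21). Without it the NK/ILC1 gate of suffix 1 had 8.89, and with it 6.75.

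Depth moved with the member sum even after thinning. In the ILC2 gate of suffix 2, barcodes of 7000 or more but under 10000 UMIs held a median of 4 member UMIs of 7000 (4 to 4, n = 181). Those of 10000 or more in that gate held 13 (11 to 15, n = 582). In the NK/ILC1 gate of suffix 2 the medians were 4 (3 to 5, n = 142) and 10 (8 to 13, n = 317). In that of suffix 1 they were 21 (14 to 26, n = 84) and 28 (26 to 31, n = 304) without the mixed cluster, and 21 (19 to 22, n = 201) and 23 (22 to 25, n = 449) with it. In the mixed cluster both ranges of depth held a median of 21. The gates rest on raw UMIs, so shallow barcodes pass them less easily, and the part of depth in these medians was not tested.

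Against the progenitor gate of the same suffix, the members had a median ratio near 0 in the ILC2 gate of suffix 1, with 22 above and 22 below, and lay lower in that of suffix 2. The median log2 ratio over the 44 members was -0.00 (-0.10 to 0.07) in suffix 1, with 0 members higher by 2-fold or more and 1 lower. Among all 10296 genes with 20 or more UMIs in the gates compared, 11.3% were higher and 12.9% lower by 2-fold. In suffix 2 the median was -0.74 (-0.84 to -0.53), with 0 members higher and 10 lower, where 13.2% of 11281 genes were higher and 17.4% lower. The median of all genes was -0.07 in suffix 1 and -0.13 in suffix 2. All 44 members passed the minimum of 20 UMIs in each of these comparisons.

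In the NK/ILC1 gate the member median lay below that of all genes in suffix 2, while in suffix 1 its interval held that of all genes. The median member ratio was -0.36 (-0.54 to -0.22) in suffix 1 with 0 members higher and 2 lower by 2-fold, where 9.50% of all genes were higher and 16.6% lower and the median of all genes was -0.27. Without the mixed cluster it was -0.23 (-0.37 to -0.04), with 0 members higher and 1 lower, against 11.8% of all genes higher, 16.0% lower and a median of all genes of -0.13. Scaling by a trimmed mean of log ratios moved the median of all genes in suffix 1 from -0.27 to 0.01 and that of the members to -0.079. In suffix 2 the member median was -0.78 (-0.95 to -0.65), with 14 lower and 0 higher by 2-fold, where 2165 of 11087 genes were lower and 1505 higher (33.1% in either direction) and the median of all genes was -0.17. Scaling without ribosomal and mitochondrial genes moved that median to -0.31. Of the 44 members, 36 were below the progenitor gate in both suffixes, 4 were above it in both and 4 changed side, where 51.5% of the 10501 genes measured in both were below in both and 28.7% above in both.

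The DN2/DN3 gate was the higher of the pair for most members. In suffix 1 the median ratio to the progenitor gate was 0.28 (0.21 to 0.37), and 0 members passed 2-fold in either direction, where 3.30% of all genes were higher and 5.13% lower. In suffix 2 it was 0.37 (0.24 to 0.48) with 3 members higher and 0 lower, where 5.61% of all genes were higher and 8.93% lower. Of the 44 members, 37 were above the progenitor gate in both suffixes and 1 below it in both, where 29.2% of 9832 genes were above in both and 32.6% below. Without the barcodes that held Cd8a or Cd8b1, the median in suffix 2 was 0.44 and 3 were higher, where 4.79% of all genes were. Averaging each barcode's own CPM in place of summing UMIs lowered the suffix 2 median to 0.12. The gamma-delta T gate of suffix 2 had a median of -0.07 (-0.14 to 0.06), with 2 members higher and 2 lower, where 10.6% and 12.7% of all genes were.

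In suffix 1 the members lay lower in the NK/ILC1 gate than in the ILC2 gate. In suffix 2 the gates could not be ordered. The median ratio of NK/ILC1 over ILC2 was -0.33 (-0.46 to -0.23) in suffix 1, where that of all genes was -0.19. There 41 of 44 members were lower, 1 of them by 2-fold, where 8.06% of all genes were. Without the mixed cluster the median ratio was -0.18 (-0.27 to -0.13), with 0 lower by 2-fold, where 6.71% of all genes were. Under other settings the suffix 1 median ran from -0.38 to -0.12. In suffix 2 the median ratio was -0.10 (-0.17 to -0.02), with 0 members past 2-fold, where 17.3% of all genes were. That ratio turned to 0.18 when the gates were set on thinned UMIs. Lower in both suffixes were 30 members and higher in both 2, where 39.9% and 24.2% of all genes were.

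**Figure D2:**
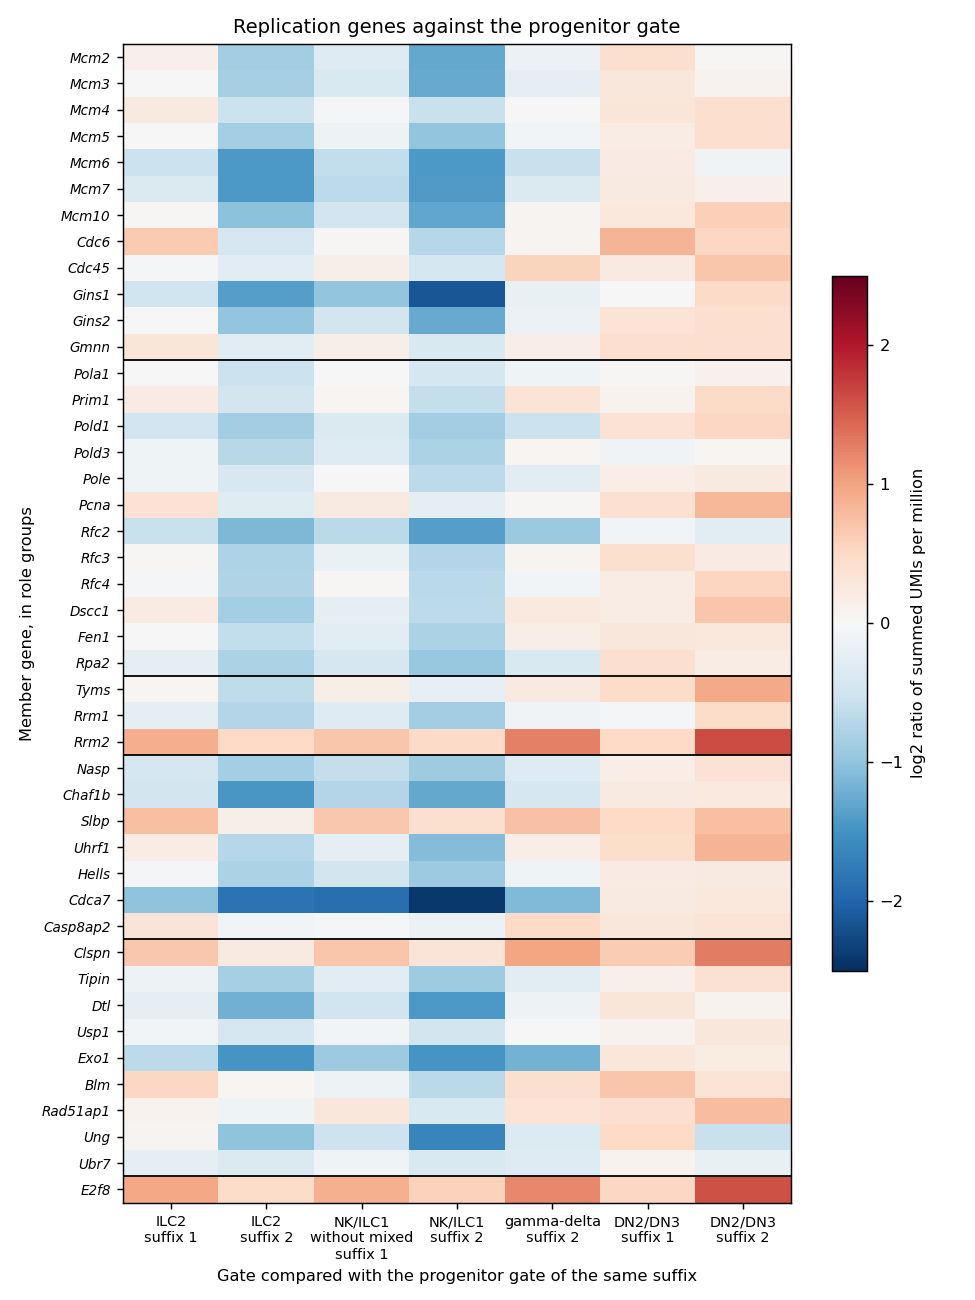
Log2 ratio of each of the 44 replication genes to the progenitor gate of the same suffix, from UMIs summed over a gate and scaled to 1000000 (colour, red higher and blue lower). Rows are grouped by role, in order helicase, polymerases and clamp, nucleotide supply, chromatin and histones, fork and repair, and the factor E2f8. Most rows are blue in the ILC2 and NK/ILC1 columns of suffix 2, where the member medians were -0.74 and -0.78, while Rrm2, Slbp, Clspn and E2f8 are red in every column. Under other settings Slbp changed sign in ILC2 of suffix 2, Clspn there and in NK/ILC1, and E2f8 in DN2/DN3 of suffix 1.

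The helicase subunits followed the list, with the ILC2 gate of suffix 1 near the progenitors and that of suffix 2 below. Mcm2 stood at 90.5 and 89.3 CPM in the progenitor gates of suffix 1 and 2, 99.4 and 48.9 CPM in the ILC2 gates, 72.3 and 36.7 CPM in the NK/ILC1 gates and 119 and 91.7 CPM in the DN2/DN3 gates. Mcm3 stood at 195 and 196 CPM in progenitors, 194 and 110 CPM in ILC2, 125 and 81.3 CPM in NK/ILC1 and 238 and 208 CPM in DN2/DN3. Mcm5 stood at 171 and 141 CPM in progenitors, 172 and 78.6 CPM in ILC2, 147 and 71.5 CPM in NK/ILC1 and 193 and 189 CPM in DN2/DN3. The NK/ILC1 levels of suffix 1 without the mixed cluster were 71.9 CPM for Mcm2, 151 CPM for Mcm3 and 157 CPM for Mcm5. Each of these 3 genes was lowest in the NK/ILC1 gate of suffix 2.

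Other helicase subunits moved less evenly. Mcm4 stood at 95 and 89.7 CPM in progenitors, 110 and 62.2 CPM in ILC2, 71.0 and 61.0 CPM in NK/ILC1 and 117 and 118 CPM in DN2/DN3. Mcm6 stood at 288 and 311 CPM in progenitors, 200 and 115 CPM in ILC2, 167 and 115 CPM in NK/ILC1, 213 CPM in the gamma-delta T gate of suffix 2 and 333 and 293 CPM in DN2/DN3. Its ILC2 ratio was -0.53 (-0.64 to -0.41) in suffix 1 and -1.44 (-1.53 to -1.35) in suffix 2. Mcm7 stood at 202 and 193 CPM in progenitors, 156 and 71.0 CPM in ILC2, 126 and 72.0 CPM in NK/ILC1 and 236 and 209 CPM in DN2/DN3. Leaving out that cluster, the NK/ILC1 levels of suffix 1 were 93 CPM for Mcm4, 189 CPM for Mcm6 and 129 CPM for Mcm7. Mcm6 and Mcm7 were below the progenitor gate in both suffixes in ILC2 and NK/ILC1 under all 14 alternatives that bear on a ratio.

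Among the loading and activating factors, Cdc6, which helps place the helicase on origins, stood at 31.1 and 27.9 CPM in progenitors, 48.9 and 20.8 CPM in ILC2, 25.2 and 16.9 CPM in NK/ILC1 and 56.2 and 40.1 CPM in DN2/DN3. Gins1, a subunit of the GINS complex that activates the helicase, stood at 40.1 and 30.8 CPM in progenitors, 28.2 and 11.8 CPM in ILC2 and 24.3 and 7.0 CPM in NK/ILC1, where its suffix 2 ratio was -2.14 (-2.62 to -1.69). In suffix 1 without the mixed cluster, Cdc6 stood at 31.7 CPM in NK/ILC1 and the Gins1 ratio was -0.99. The role group's median ratio in suffix 2 was -0.86 in ILC2 and -1.26 in NK/ILC1. Gmnn, the geminin gene whose product blocks renewed loading, lay above the role group's median, at -0.26 and -0.39 in those comparisons.

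The polymerase, clamp and clamp loader genes had median ratios of -0.02 in ILC2 of suffix 1, -0.73 in ILC2 of suffix 2 and -0.70 in NK/ILC1 of suffix 2. Pcna, the clamp, stood at 107 and 98.7 CPM in progenitors, 137 and 79.7 CPM in ILC2, 108 and 84.6 CPM in NK/ILC1, 101 CPM in gamma-delta T of suffix 2 and 139 and 174 CPM in DN2/DN3. Fen1, the nuclease that trims Okazaki fragments, stood at 115 and 91.0 CPM in progenitors, 116 and 59.5 CPM in ILC2, 103 and 52.8 CPM in NK/ILC1 and 141 and 110 CPM in DN2/DN3. In suffix 1 Pcna stood at 124 CPM and Fen1 at 95.8 CPM in NK/ILC1 once the mixed cluster was left out. Rfc2, a clamp loader subunit, was past 2-fold lower in suffix 2 in both ILC2 (-1.13) and NK/ILC1 (-1.38), while the subunits Rfc3 and Rfc4 lay between -0.67 and -0.78 there. The catalytic subunits Pola1 and Pole, of polymerases alpha and epsilon, were at -0.53 and -0.40 in ILC2 of suffix 2.

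Nucleotide supply split between its members. Rrm2, the regulated small subunit of ribonucleotide reductase, stood at 135 and 85.6 CPM in progenitors, 254 and 121 CPM in ILC2, 185 and 119 CPM in NK/ILC1, 205 CPM in gamma-delta T of suffix 2 and 192 and 264 CPM in DN2/DN3. It was higher than in progenitors in every gate, by 1.88-fold in ILC2 of suffix 1 (log2 0.91, 0.79 to 1.03), 1.41-fold in ILC2 of suffix 2 (0.50, 0.39 to 0.60) and 3.08-fold in DN2/DN3 of suffix 2 (1.62, 1.47 to 1.78). Rrm1, the large subunit, was lower in the same ILC2 comparisons, at -0.23 and -0.72. Tyms, thymidylate synthase, stood at 197 and 142 CPM in progenitors, 205 and 90.9 CPM in ILC2, 200 and 123 CPM in NK/ILC1 and 273 and 275 CPM in DN2/DN3. In NK/ILC1 of suffix 1 without the mixed cluster, Rrm2 and Tyms each stood at 218 CPM.

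Cdca7 was the member furthest below the progenitors in the innate gates. Its product activates the remodeller encoded by Hells and is known to be needed for DNA methylation at heterochromatin. It stood at 167 and 179 CPM in the progenitor gates, 83.5 and 49.9 CPM in ILC2, 49.8 and 33.7 CPM in NK/ILC1 (45.1 CPM in suffix 1 without the mixed cluster), 158 and 83.3 CPM in gamma-delta T and 195 and 216 CPM in DN2/DN3. The progenitor and DN2/DN3 gates of both suffixes and the 17 gamma-delta T barcodes of suffix 1 were high, and the other gates were low with no overlap of their counting intervals. The log2 ratio to progenitors was -1.003 (-1.18 to -0.83) in ILC2 of suffix 1 and -1.85 (-1.98 to -1.72) in suffix 2. In NK/ILC1 it was -1.75 (-1.90 to -1.60), or -1.89 (-2.08 to -1.70) without the mixed cluster, and -2.41 (-2.62 to -2.21) in suffix 2. In gamma-delta T of suffix 2 it was -1.11 (-1.36 to -0.86). In DN2/DN3 it was 0.22 (0.04 to 0.40) and 0.27 (0.11 to 0.43). Over the 14 alternatives the ILC2 ratio of suffix 1 ran from -1.07 to -0.86, so it fell on either side of 2-fold.

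Hells itself stood at 113 and 114 CPM in progenitors, 110 and 65.8 CPM in ILC2, 59.8 and 60.5 CPM in NK/ILC1 and 131 and 134 CPM in DN2/DN3, and its ratio in ILC2 of suffix 1 was -0.04. Uhrf1, which reads hemimethylated DNA for the methyltransferase Dnmt1, stood at 112 and 98.1 CPM in progenitors, 128 and 59.8 CPM in ILC2, 73.1 and 46.0 CPM in NK/ILC1 and 152 and 178 CPM in DN2/DN3. The Uhrf1 ratio in that gate was 0.19. NK/ILC1 of suffix 1 without the mixed cluster held 83.1 CPM of Hells and 95.5 CPM of Uhrf1.

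Slbp, which binds the stem-loop of histone mRNA, lay above the median of its role group in the ILC2 and NK/ILC1 gates. It stood at 148 and 140 CPM in progenitors, 249 and 155 CPM in ILC2, 210 and 184 CPM in NK/ILC1, 231 CPM in gamma-delta T of suffix 2 and 209 and 237 CPM in DN2/DN3. The 7 members of that group, of chromatin and histone supply, had medians of -0.045 and -0.79 in ILC2 and -0.62 and -0.92 in NK/ILC1, while all 7 were above 0 in DN2/DN3 of both suffixes (0.22 and 0.34). The Slbp ratio was 0.76 and 0.15 in ILC2, and the value of suffix 2 turned to -0.04 under 1 of 14 alternatives. Chaf1b, of the histone chaperone CAF-1, was at -0.47 and -1.46 in ILC2 and -0.50 and -1.28 in NK/ILC1. Without the mixed cluster the NK/ILC1 values of suffix 1 were 236 CPM for Slbp and a ratio of -0.74 for Chaf1b.

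Clspn and E2f8 were also higher than in progenitors. Clspn, the checkpoint adaptor claspin, stood at 67.1 and 53.5 CPM in progenitors, 107 and 62.5 CPM in ILC2, 72.9 and 66.8 CPM in NK/ILC1 (109 CPM in suffix 1 without the mixed cluster), 106 CPM in gamma-delta T of suffix 2 and 104 and 130 CPM in DN2/DN3. E2f8, an atypical E2F that represses E2F targets, stood at 14.1 and 11.7 CPM in progenitors, 27.7 and 16.1 CPM in ILC2, 19.4 and 17.6 CPM in NK/ILC1, 27.0 CPM in gamma-delta T of suffix 2 and 35.2 CPM in DN2/DN3 of suffix 2. Clspn, E2f8 and Rrm2 were the 3 members past 2-fold in DN2/DN3 of suffix 2. The Clspn ratio changed sign under 1 or 2 of 14 alternatives in NK/ILC1 of both suffixes and ILC2 of suffix 2, and the E2f8 ratio under 1 in DN2/DN3 of suffix 1.

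Among the repair and turnover members, Exo1, an exonuclease of mismatch and break repair, stood at 36.5 and 32.0 CPM in progenitors, 23.1 and 11.6 CPM in ILC2, 16.8 and 11.5 CPM in NK/ILC1, 14.1 CPM in gamma-delta T of suffix 2 and 44.2 and 36.4 CPM in DN2/DN3. With Cdca7 it was 1 of the 2 members lower by 2-fold in NK/ILC1 of both suffixes (-1.12 and -1.47), though at -0.90 without the mixed cluster. Ung, the uracil glycosylase that removes misplaced uracil, stood at 72.2 and 80.8 CPM in progenitors, 75.9 and 40.2 CPM in ILC2, 55.2 and 25.9 CPM in NK/ILC1 and 102 and 54.6 CPM in DN2/DN3. Its DN2/DN3 ratio was 0.49 in suffix 1, or -0.02 with gates on thinned UMIs, and -0.56 in suffix 2. Dtl, which marks replication factors for destruction, was at -0.25 and -1.19 in ILC2 and -0.95 and -1.44 in NK/ILC1. Without the mixed cluster the suffix 1 ratio of Dtl was -0.50, and Exo1 and Ung stood at 19.6 and 50.6 CPM.

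Shares of the member UMIs were also taken among barcodes rich in replication transcripts. In barcodes with 30 or more member UMIs of 7000, Cdca7 made up 3.32% of member UMIs in progenitors of suffix 1 (2.89 to 3.79%, 150 barcodes) and 3.92% in suffix 2 (3.54 to 4.33%, 228 barcodes). It made up 1.99% (1.61 to 2.44%) and 1.67% (1.37 to 2.03%) in ILC2, and 1.17% (without the mixed cluster) and 1.11% in NK/ILC1. In DN2/DN3 it made up 2.89% and 3.83%. Rrm2 made up 3.38% and 2.43% in progenitors against 5.65% and 5.59% in ILC2 and 3.36% and 5.99% in DN2/DN3, and Slbp 2.93% and 3.26% against 5.58% and 5.77% in ILC2. The intervals of ILC2 and progenitors did not overlap for Cdca7, Rrm2 or Slbp in either suffix, and those for Exo1 overlapped in both. Non-overlap was not particular to the genes named so far. Clspn made up 1.44% and 1.40% in progenitors against 2.36% and 3.15% in ILC2, without overlap in either suffix. Nasp went the other way, with 6.62% and 5.35% against 4.65% and 4.34%, also without overlap. Gins1, Rrm1 and Gmnn were among the members without overlap in suffix 1 only. Mcm6, Mcm7, Rfc2, Prim1 and E2f8 were among those without overlap in suffix 2 only. Members without overlap were not counted over the list. The range is set by the member sum, to which each gene adds, so these shares are a description.

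Between suffixes, the innate gates differed and the DN2/DN3 gates did not move as a list. The median ratio of suffix 2 over suffix 1 was -0.83 (-0.94 to -0.78) in ILC2, where 44 of 44 members were lower, 12 of them by 2-fold, against 4.27% of all genes. In NK/ILC1 it was -0.63 with 38 lower, 5 of them by 2-fold, where 5.91% of all genes were. Without the mixed cluster it was -0.77 with 43 lower, 5 of them by 2-fold, against 3.09%. In progenitors it was -0.16 (-0.23 to -0.07), with 33 lower and 0 past 2-fold, where 5.28% of all genes were past it. Among all genes, 5586 of 10208 were lower in ILC2 and 5266 of 10975 in progenitors. For NK/ILC1 they were 3990 of 10206, or 4633 of 9863 without the mixed cluster. In DN2/DN3 the median ratio was -0.01, with 22 higher and 22 lower and 0 past 2-fold, where 7.66% of all genes were. Each suffix is 1 library, so library and biology cannot be told apart here. Markers of other cells moved too. The 6 erythroid markers summed to 2.70 CPM in ILC2 of suffix 1 with 4 of them at 0, and to 211 CPM in suffix 2, mostly Hbb-bs (176 CPM). The 10 NK/ILC1 markers summed to 599 and 81.2 CPM in the ILC2 gates and 443 and 50.2 CPM in the progenitor gates of suffix 1 and 2. Gzma was the highest gene in each of these sums. Without Gzma they were 212 and 44.6 CPM in ILC2 and 12.3 and 11.7 CPM in progenitors. The part of these markers in the result was not tested.

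Replication and mitotic transcripts were then compared within barcodes. The Pearson correlation across barcodes between the member sum and the sum of the 53 G2/M genes was 0.00 in ILC2 of suffix 1 (n = 201) and 0.51 in suffix 2 (n = 763). It was -0.08 (n = 249) and 0.21 (n = 556) in progenitors, 0.16 in NK/ILC1 of suffix 1 with or without the mixed cluster (n = 650 and 388) and 0.51 in suffix 2 (n = 459). The DN2/DN3 gates had 0.41 (n = 54) and 0.21 (n = 51), and gamma-delta T of suffix 2 had 0.40 (n = 98). These barcodes share a library and a depth of 7000, and the values are descriptions. In ILC2 of suffix 1 the G2/M median was 23 UMIs in barcodes with under 10 member UMIs, 105 in those with 10 to 29 and 41 in those with 30 or more, so it was highest at middle member sums. The same order was seen in NK/ILC1 of suffix 1 without the mixed cluster (17, 110 and 56) and in progenitors of suffix 1 (10, 73.5 and 43), where the lowest range held 3 barcodes. It was also seen in gamma-delta T of suffix 2 (15, 58 and 40) and in DN2/DN3 of suffix 1 (15, 57.5 and 45) and suffix 2 (13, 109 and 62). The DN2/DN3 ranges were small, with 4, 10 and 40 barcodes in suffix 1 and 3, 15 and 33 in suffix 2. In suffix 2 the G2/M median rose with the member sum in ILC2 (11, 25 and 40), NK/ILC1 (11, 17 and 62) and progenitors (14, 27 and 33).

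**Figure D3:**
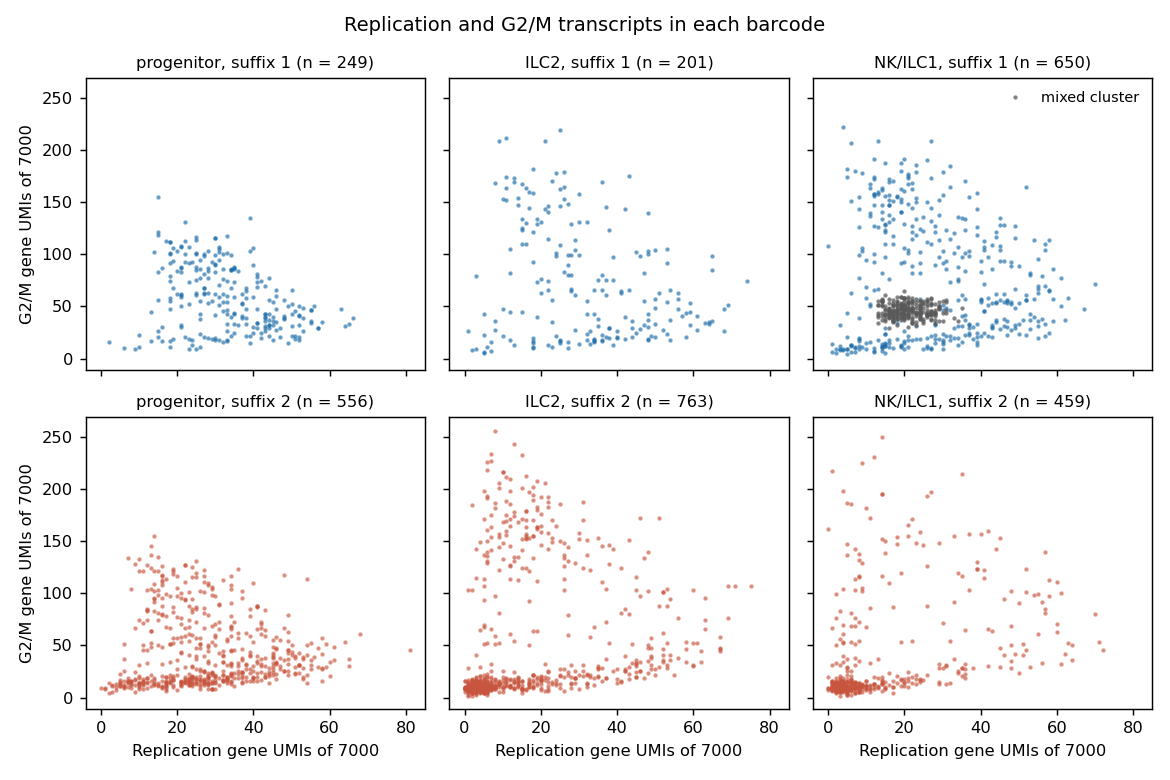
Each point is a barcode thinned to 7000 UMIs, with the UMIs of the 44 replication genes on the horizontal axis and those of the 53 G2/M genes on the vertical axis, in 3 gates of suffix 1 (top) and suffix 2 (bottom). In suffix 2 a dense group of ILC2 and NK/ILC1 barcodes lies near the origin, where 420 of 763 and 281 of 459 barcodes hold under 10 replication UMIs. The mixed cluster (grey) forms a compact group around 21 replication UMIs and 46 G2/M UMIs.

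Single members differed in how they tracked the rest of the list and the G2/M genes. In ILC2 of suffix 2, Mcm3 (r = 0.61), Tipin (0.59) and Gmnn (0.59) correlated most with the sum of the other members, and Ubr7 least (0.08). In NK/ILC1 of suffix 2, Clspn (0.65) and Mcm7 (0.63) led. In the mixed cluster, member correlations with the others lay near 0, such as -0.12 for Mcm3 and -0.02 for Rrm2. Against the G2/M sum, Ung was the lowest in ILC2 of suffix 1 (-0.41) and progenitors of suffix 1 (-0.45). Mcm6 was at -0.30 and Mcm4 at -0.27 in ILC2 of suffix 1, while Tyms was at 0.29, Rrm1 at 0.28 and Rrm2 at 0.28. In suffix 2 the ILC2 values were shifted upward, from 0.55 for Rrm2 and 0.44 for Rrm1 to 0.14 for Mcm6 and -0.00 for Ung. Rrm1, Rrm2 and Tyms, the nucleotide supply genes, thus stood above the helicase subunits Mcm4 and Mcm6 in the ILC2 gates of both suffixes. Low counts can hold down r, but in ILC2 of suffix 2 members scarcer than Blm and Ubr7 correlated more with the others. Blm (mean of 0.174 UMIs) had 0.20 and Ubr7 (0.197) had 0.08. Mcm10 (0.055) had 0.29 and E2f8 (0.083) had 0.32. The part of low counts in these values was not tested.

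**Figure D4:**
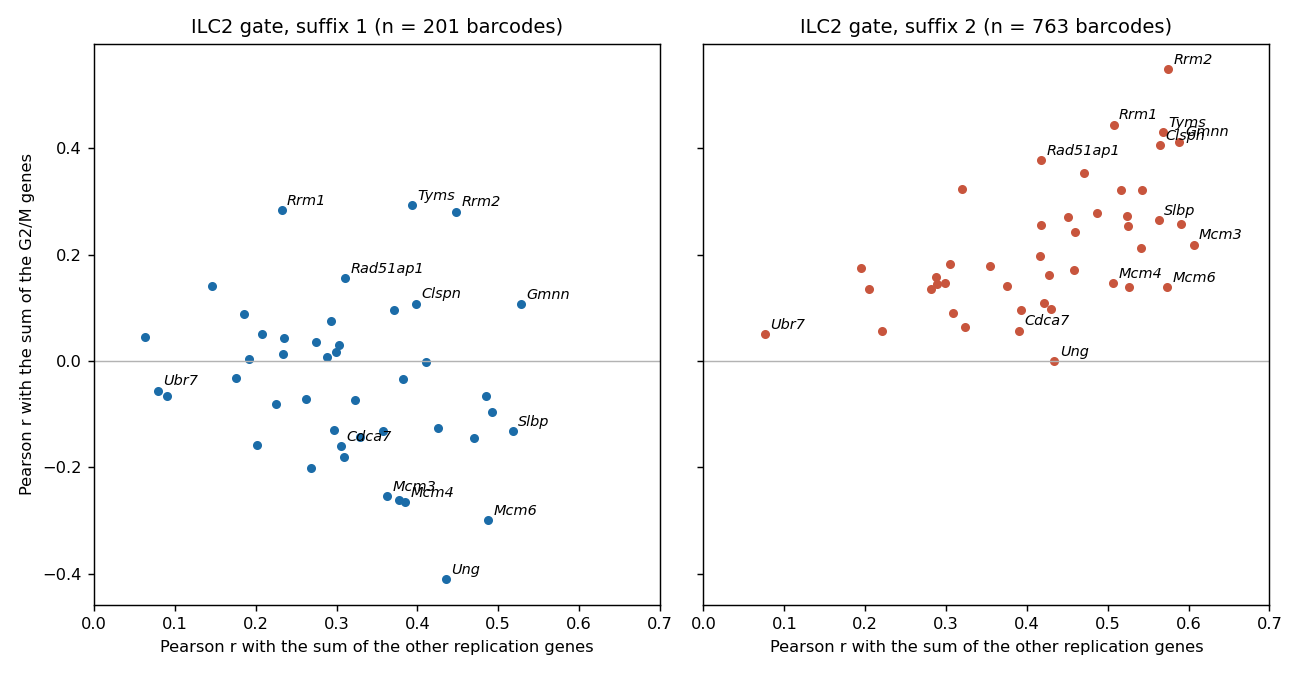
For each of the 44 replication genes in the ILC2 gates, the Pearson r across barcodes with the sum of the other 43 members (horizontal) and with the sum of the 53 G2/M genes (vertical), in suffix 1 (left, n = 201 barcodes) and suffix 2 (right, n = 763). Rrm1, Rrm2 and Tyms are near the top in both suffixes and Ung is at the bottom, at -0.41 and -0.00.

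The 55 other replication genes, a list that does not overlap the members, had median ratios to progenitors of 0.04 and -0.51 in ILC2, -0.30 (-0.06 without the mixed cluster) and -0.55 in NK/ILC1, -0.02 in gamma-delta T of suffix 2 and 0.23 and 0.34 in DN2/DN3. In ILC2 of suffix 1, 2 were higher and 2 lower by 2-fold, where 11.3% of all genes were higher and 12.9% lower. In ILC2 of suffix 2, 2 were higher and 7 lower, where 13.2% and 17.4% of all genes were. In NK/ILC1 of suffix 2, 2 were higher and 12 lower, where 1505 of 11087 genes were higher and 2165 lower. Dut, which keeps uracil out of DNA, stood at 711 and 575 CPM in progenitors, 623 and 325 CPM in ILC2, 581 and 291 CPM in NK/ILC1 and 836 and 886 CPM in DN2/DN3. Dctpp1, a nucleotide pool hydrolase, was at -0.48 and -0.80 in ILC2 and -0.34 and -1.37 in NK/ILC1, and at -1.11 in suffix 1 without the mixed cluster. Dnmt1, the maintenance methyltransferase, was at 0.35 and -0.05 in ILC2, and Rnaseh2c, of ribonuclease H2, at 0.45 and -0.01.

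E2f2, an E2F activator, was among the largest ratios of that list. It stood at 2.20 and 3.79 CPM in progenitors, 19.2 CPM in ILC2 of suffix 1, 16.5 and 31.5 CPM in NK/ILC1 and 34.0 CPM in gamma-delta T of suffix 2. Its log2 ratio was 3.12 (2.38 to 3.93) and 2.36 (1.98 to 2.77) in ILC2. In DN2/DN3 of suffix 2 it was 3.40 (2.90 to 3.90), but 1.45 (0.43 to 2.34) without the barcodes that held Cd8a or Cd8b1. Cdk2, the S phase kinase, was at -2.13 (-2.56 to -1.72) in NK/ILC1 of suffix 2, with 8.62 against 37.6 CPM, and at -0.42 in suffix 1. Recql4, a helicase gene, was at -2.61 (-7.93 to -0.08) in gamma-delta T of suffix 2, resting on 1 UMI.

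The mitotic genes had other ratios than the members. Their median ratio to progenitors was 0.20 and 0.16 in ILC2 and 0.29 (without the mixed cluster, -0.046 with it) and -0.23 in NK/ILC1. It was -0.38 and 0.68 in DN2/DN3 and 0.49 in gamma-delta T of suffix 2. Mki67, a marker of cycling cells, stood at 173 and 143 CPM in progenitors and 316 and 306 CPM in ILC2, and Top2a, the topoisomerase of late S phase and mitosis, at 294 and 276 CPM against 428 and 384 CPM. In ILC2 of suffix 2, 36 of the 53 mitotic genes were above the progenitors and 17 below, where 4886 of 11281 genes were above. Mki67, at 1.10, was the highest of the mitotic genes. These ratios rest on UMIs summed over a gate, and the median thinned barcode of suffix 2 went the other way. It held 14 mitotic UMIs (13 to 16) in ILC2 against 30 (26 to 33) in progenitors. The means were 46.1 and 43.3 and the highest barcodes held 256 and 155, so the ILC2 gate had the longer upper tail. For suffix 1 the medians were 57 (45 to 67) in ILC2 and 52 (47 to 59) in progenitors, with overlapping intervals.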

How the data were processed

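Single-cell RNA sequencing of 2 sorted DN1 libraries gave UMI counts per gene and barcode, deposited as whole numbers. Per the submitters' processing notes, Cell Ranger 3.0.2, STAR and build GRCm38 were used. How cells were called is not given in the sources used here. No column was tied to a sample by a label. The members and lists were chosen with earlier results of these data known.

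Barcodes with under 500 genes or over 10% mitochondrial UMIs (35 of suffix 1, 507 of suffix 2), doublets called by Scrublet in scanpy 1.11.5 (10 and 93) and barcodes with 2 or more UMIs of Krt8, Krt18 and Prss16 (263 and 59) were left out. Barcodes that met several gates (34 and 28) were left out, and DN2/DN3 barcodes had also to miss the other gates at 1 UMI. Kept barcodes held 713 to 113167 UMIs. Counts were summed per gate and scaled to CPM, and ratios used genes with 20 or more UMIs in the pair of gates. Intervals were exact Poisson, conditional exact for ratios, Clopper-Pearson for shares and order statistics for medians. Those of levels, ratios and shares cover counting error only, and those of medians the spread of barcodes or genes. With 1 library per suffix, no test was run. Thinning to 7000 UMIs left out shallower barcodes (18 of 69 in the DN2/DN3 gate of suffix 2, 107 of 757 in the NK/ILC1 gate of suffix 1, 34 of 797 in ILC2 of suffix 2). The mixed cluster came from Leiden clustering (leidenalg 0.10.2, resolution 1) without cell cycle, replication and reporter genes, as the cluster with the highest product of Spi1 and Xcl1 levels. Functions were tested on simulated data. Alternatives covered gates, filters, doublets, depth and scaling.

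All members may be named. Full values were set for Mcm2 to Mcm7, Pcna, Tyms, Rrm2, Fen1, Uhrf1, Hells, Cdc6 and members past 2-fold in both suffixes. Of the other replication genes, the 4 with most UMIs and the 3 with the largest ratios are named. Slbp, Clspn, E2f8, Gins1 and Ung were singled out after their values were seen. Values were computed in Python 3.11.15 with scipy 1.17.1 and numpy 2.4.6.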

Additional observations from a re-analysis of the deposited data

Results flagged for a closer look

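Barcodes outside the gates also held replication transcripts. In suffix 1, 475 ungated barcodes of 7000 or more UMIs (of 589) held a median of 29 member UMIs (27 to 32). In suffix 2, 983 such barcodes (of 1198) held a median of 8 (7 to 10), with a 10th percentile of 2 and a 90th of 47. The 249 deep enough barcodes of suffix 1 that were left out for Krt8, Krt18 and Prss16 held a median of 22 (21 to 23), with a 10th percentile of 15 and a 90th of 38.2. Barcodes left out for these genes included part of the mixed cluster, which held 550 barcodes with them and 370 without.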

How the results depend on the processing

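No paired analysis was possible because each stage has 1 library and no column is tied to a sample. Of 144 comparisons of a member median ratio with an alternative, 129 stayed within the interval of the reported value, as did 109 of 117 medians per barcode. The cause of each change below was not tested. With gates on thinned UMIs, NK/ILC1 over ILC2 turned to 0.18 in suffix 2 and was -0.12 in suffix 1. ILC2 over progenitors in suffix 1 was then -0.12, DN2/DN3 in suffix 1 0.19 and NK/ILC1 in suffix 2 -0.62. The medians per barcode became 24 (progenitors of suffix 2), 26.5 (ILC2 of suffix 1) and 6 (ILC2 of suffix 2, as with 1 UMI of each gate gene). With 10000 UMIs, rescaled to 7000, ILC2 of suffix 2 had 12.6, and NK/ILC1 23.1 and 9.1. Averaging over barcodes gave ratios of -0.97 (ILC2, suffix 2), -1.05 (NK/ILC1, suffix 2), 0.18 and 0.12 (DN2/DN3). Trimmed mean scaling gave -0.079 for NK/ILC1 and -0.13 for NK/ILC1 over ILC2 in suffix 1. NK/ILC1 over ILC2 in suffix 2 was -0.23 without ribosomal and mitochondrial genes and -0.20 with 3 UMIs of each gate gene. DN2/DN3 in suffix 1 was 0.16 with its looser gate. Without the mixed cluster, NK/ILC1 of suffix 1 had 27 UMIs and -0.18 over ILC2.

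Counts past 2-fold moved as follows. At 1.5-fold, members lower than progenitors were 2 and 27 in ILC2 and 15 and 30 in NK/ILC1, and lower than ILC2 they were 10 and 3, where 22.8% and 29.1%, 32.9% and 30.8%, and 21.5% and 15.45% of all genes were. Members higher were 5 (ILC2, suffix 1), 3 and 11 (DN2/DN3) and 4 (gamma-delta T), where 18.9%, 8.11% and 12.7%, and 19.8% of all genes were. In ILC2 of suffix 1, members lower were 0 with 3 UMIs of each gate gene, doublets kept or trimmed scaling and 2 with thinned gates, and 1 was higher with 3 UMIs or trimmed scaling. In NK/ILC1 of suffix 1, members lower were 4 with epithelium-gene barcodes kept or averaging over barcodes, and 1 with thinned gates, trimmed scaling or without the mixed cluster. Against ILC2 they were 3 with epithelium-gene barcodes kept and 0 without the mixed cluster. In suffix 2, averaging over barcodes gave 17 lower in ILC2 and 24 in NK/ILC1, where 18.6% and 20.9% of all genes were, and with 1 UMI of each gate gene 0 were lower in gamma-delta T. Depth limits members of few UMIs most.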
